A study of Mus musculus with 6 samples.

Results

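Pou5f1, Nanog, Sox2, Sall4 and Utf1, genes of the core pluripotency network, were followed between days 3 and 4 of differentiation. They were chosen by name, and every probe set that the array's annotation assigns to one of them was taken, which gave 8 probe sets for 5 genes among 18193 genes with a named probe set. All 5 genes had a probe set that could be tested, Utf1 only through its value on a single day 3 array.

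The study profiled mouse E14 embryonic stem (ES) cells of the 129P2/OlaHsd background that carry a Venus reporter of Msgn1 (the Msgn1RepV cells) on their way to paraxial mesoderm, the tissue that forms the somites. The cells were grown as a monolayer on gelatin in medium with 15% serum, 0.5% DMSO, the Wnt agonist R-spondin3 at 10 ng/mL and the BMP antagonist Noggin at 200 ng/mL. Venus-positive cells were sorted after 4 days (3 arrays) or 3 days (3 arrays), and both days share all of these agents. All arrays are of 1 reporter line, and the comparison holds no undifferentiated or Venus-negative cells as a group. The labels call the samples biological replicates without saying whether they were separate sorts, so the p-values measure the spread between these arrays.

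OCT4, the protein of Pou5f1, binds DNA next to SOX2, and the pair with NANOG forms the circuit that keeps ES cells pluripotent and also maintains its own genes. In the embryo Pou5f1 and Nanog remain on in the epiblast and are switched off as the germ layers form, whereas Sox2 stays on in neural tissue and in the bipotent progenitors at the caudal end. SALL4, a zinc finger protein, and UTF1, a chromatin-bound protein, work alongside this circuit in ES cells.

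The best known contact between these proteins and their own genes is a composite element at which SOX2 and OCT4 sit side by side. Promoter windows from RefSeq (GRCm38.p6, 250 bases before to 50 bases after an annotated start) were available for 4 of the 5 genes, all but Sall4. They were searched on both strands for the octamer-like word ATGCAAA, the SOX-like word CATTGT, and the composite of CATTGT, any base and ATGCAAA, which contains both shorter words. The Nanog window on the plus strand, chr6:122707315-122707614, is shown because it holds the composite, written in capitals, and the Sox2 window, also on the plus strand, chr3:34649745-34650044, because it holds the octamer-like word, in capitals as well.
Nanog: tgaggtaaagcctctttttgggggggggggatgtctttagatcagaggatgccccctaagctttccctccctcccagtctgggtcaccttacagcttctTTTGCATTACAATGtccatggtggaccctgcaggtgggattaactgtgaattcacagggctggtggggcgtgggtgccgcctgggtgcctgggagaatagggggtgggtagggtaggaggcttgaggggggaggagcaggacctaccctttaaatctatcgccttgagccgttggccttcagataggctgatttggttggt
Sox2: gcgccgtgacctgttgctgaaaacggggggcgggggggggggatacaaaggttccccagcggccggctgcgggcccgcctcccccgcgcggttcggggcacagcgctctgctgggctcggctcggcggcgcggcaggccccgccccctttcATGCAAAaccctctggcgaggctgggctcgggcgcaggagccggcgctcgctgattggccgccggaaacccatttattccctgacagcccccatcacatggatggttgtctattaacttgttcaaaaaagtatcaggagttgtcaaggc

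In the Nanog window the composite lies on the strand opposite to the gene, and its first base as printed is 151 bases before the annotated start. Of 32851 promoter windows in the table, 2 held the composite (0.00609%), and both belong to Nanog, whose 2 windows overlap. The composite word is the textbook form of this element, of which the Nanog promoter is a standard example, so its presence there was known in advance. The octamer-like word was present in 4.63% of all windows and the SOX-like word in 12.6%. The Utf1 window and the first of the Pou5f1 windows held none of the words, and the second Pou5f1 window held the SOX-like word. A match describes the letters of the window and does not show binding, and the absence of a match says nothing about the factor.

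Signals are MAS5 intensities in arbitrary units, and a change is the log2 signal at day 4 minus that at day 3, given with the standard error of the fit. The test was limma across 12285 genes with Benjamini-Hochberg adjustment, and a gene was called at an adjusted p under 0.05. Genes whose signal lay under the filter level of 13.5 were not tested. Of all genes tested, 22.2% were called, 10.7% lower and 11.5% higher at day 4. Of the 5 pluripotency genes, 4 were called lower, 0 were called higher and 1, Utf1, was not called. Without day 4 replicate 1, an array described below, 3 were called lower (all but Sox2 and Utf1), where 28.7% of all genes were called, 14.5% lower and 14.2% higher. In 4 of the 5 genes, all but Utf1, no day 4 array reached the level of any day 3 array on the probe set tested. The sizes differed widely: log2 changes ran from -1.91 for Pou5f1 to -0.28 for Sall4, with a median over the 5 genes of -0.75 against -0.01 over all genes tested. Lower RNA per cell and fewer expressing cells within the sorted population cannot be told apart in these bulk samples.

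One array stood apart. Day 4 replicate 1 had a ratio of 3′ to 5′ control signal, a measure of RNA integrity and amplification, of 14.0 at the Gapdh control, where the remaining 5 arrays had 2.43 to 3.19, and of 6.71 at the Actb control, where they had 2.77 to 3.84. Pearson correlations between arrays, across probe sets, were 0.933 to 0.948 within days and 0.924 to 0.939 between days, and no pair of arrays held identical values. The change of each pluripotency gene is therefore also given without that array.

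**Figure D1:**
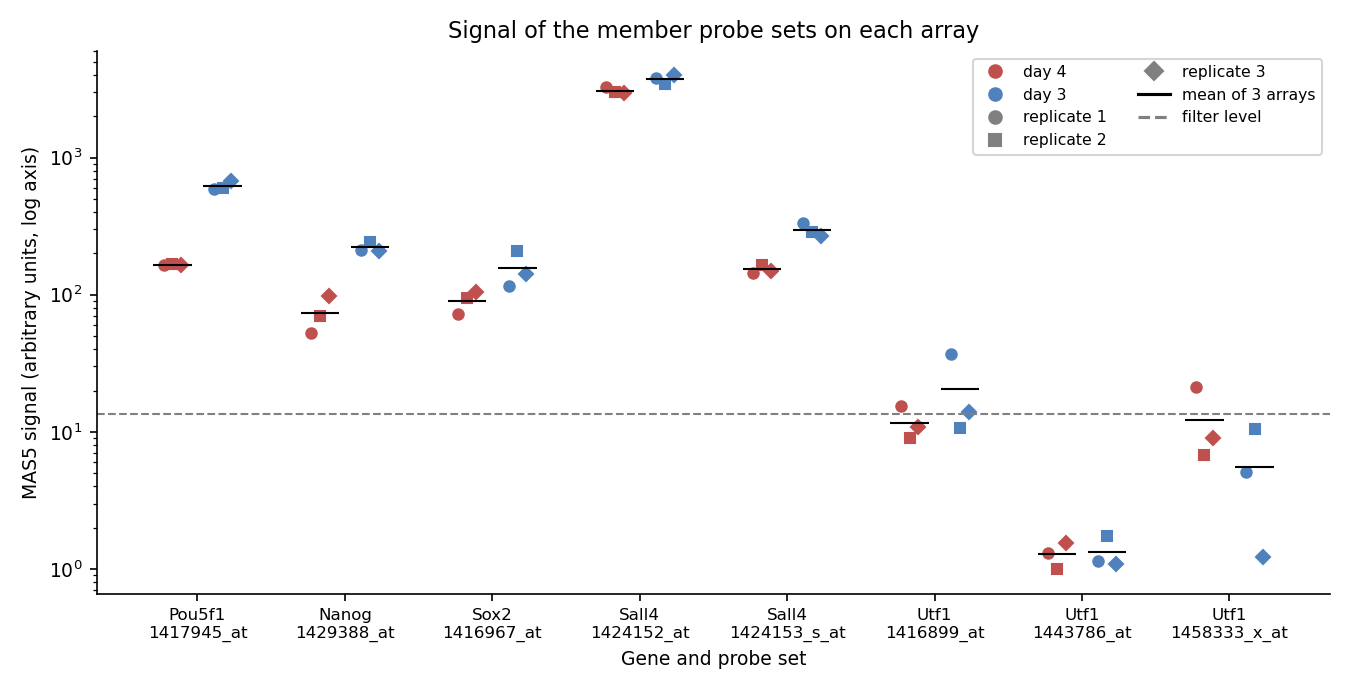
MAS5 signal (arbitrary units, log axis) of the 8 probe sets of the 5 genes on each array, with day 4 in red to the left and day 3 in blue to the right, a marker shape for each replicate, a black bar for the mean of 3 arrays and a dashed line at the filter level of 13.5. The Pou5f1 probe set shows narrow, widely separated groups, the brighter Sall4 probe set stays near its day 3 level, and the 3 Utf1 probe sets lie around or under the filter level.

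Pou5f1 was the most sharply lowered of the 5 genes. Its signal was 164, 168 and 164 on the day 4 arrays, against 590, 604 and 673 on the day 3 arrays. The day 4 values lie within a coefficient of variation of 1.53%, the day 3 values within 7.12%, and the groups are far apart. Day 4 averaged 165 ± 2.53 and day 3 averaged 622 ± 44.3 (SD, n = 3 arrays each), so that the day 4 signal was 26.6% of the day 3 signal by the ratio of geometric means. The log2 change was -1.91 ± 0.10 (limma adjusted p = 6.05e-06). Among 12285 genes it ranked 39 by the size of the fall and 13 by p.

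This fall moved little with the choice of arrays or processing. Pou5f1 was called lower in 17 of 17 alternatives, with log2 changes between -1.95 and -1.85. Without day 4 replicate 1 the change was -1.90 (limma adjusted p = 7.5e-07), and with the 3′ to 5′ ratio as a covariate it was -1.91. RefSeq names 7 pseudogenes of Pou5f1, and whether the single Pou5f1 probe set also reads their transcripts was not tested.

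Nanog, the homeodomain factor whose promoter is printed above, fell by a similar amount with a wider spread. Its signal was 52.6, 69.9 and 98.2 on the day 4 arrays, against 213, 244 and 208 on the day 3 arrays. The highest day 4 array was under a signal of 100 and the lowest day 3 array was above 200, and day 4 was also the more variable day (coefficients of variation of 31.3% at day 4 and 8.88% at day 3). The means were 73.6 ± 23.0 at day 4 and 221 ± 19.7 at day 3 (SD, n = 3 arrays each). The log2 change was -1.63 ± 0.21 (limma adjusted p = 0.000738), which leaves 32.2% of the day 3 signal.

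The lowest Nanog value came from day 4 replicate 1, the array with the high 3′ to 5′ ratio. Without it the change was -1.41 (limma adjusted p = 0.000123), and with the ratio as a covariate it was -1.32 (limma adjusted p = 0.000458). Without day 4 replicate 3, which had the highest of the day 4 values, it was -1.86. Nanog was called lower in 17 of 17 alternatives. RefSeq names 2 Nanog pseudogenes, and whether its probe set reads them was not tested.

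Sox2, which encodes the HMG box partner of OCT4, fell less and with less certainty. Its signal was 71.9, 94.0 and 105 on the day 4 arrays, against 116, 208 and 142 on the day 3 arrays. The groups do not overlap, but the gap between the highest day 4 array and the lowest day 3 array is small beside the spread within day 3. Day 4 averaged 90.5 ± 17.0 and day 3 averaged 155 ± 47.5 (SD, n = 3 arrays each). The log2 change was -0.75 ± 0.22 (limma adjusted p = 0.0389), with 59.3% of the day 3 signal left.

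This call rests on the arrays and settings used. Of 6 fits with 1 array removed, 4 did not call it: the change was -0.60 without day 4 replicate 1 (limma adjusted p = 0.057), -0.79 without day 4 replicate 2 (limma adjusted p = 0.0697), -0.52 without day 3 replicate 2 (limma adjusted p = 0.129) and -0.80 without day 3 replicate 3 (limma adjusted p = 0.0915). The adjusted p was 0.0508 when each probe set was tested on its own in limma and 0.116 with the 3′ to 5′ ratio as a covariate, where the change was -0.56. The direction was lower in 17 of 17 alternatives, of which 9 called it.

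Nanog and Sox2 shared the order of arrays at day 4, where both were lowest in replicate 1 and highest in replicate 3. At day 3 both were highest in replicate 2, and the other two arrays were in opposite orders. Pou5f1 did not share that spread at day 4, where its 3 values were nearly equal. With 3 arrays a day, such an order is a description of these arrays and was not tested.

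Sall4, the zinc finger gene, remained at a high signal on both days. Its brighter probe set, 1424152_at, read 3288, 2981 and 2930.3 on the day 4 arrays, against 3804, 3419.6 and 3968 on the day 3 arrays. Every day 4 array is lower than every day 3 array, by a small margin. The means were 3066 ± 193 at day 4 and 3730.4 ± 281 at day 3 (SD, n = 3 arrays each), and the log2 change was -0.28 ± 0.08 (limma adjusted p = 0.0255). The day 4 signal was 82.3% of that at day 3.

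The other Sall4 probe set, 1424153_s_at, whose suffix marks probes shared among several transcripts, fell more. It read 144, 166 and 149 on the day 4 arrays, against 331, 287 and 268 on the day 3 arrays. These groups are well apart, with means of 153 ± 11.1 at day 4 and 295 ± 31.9 at day 3 (SD, n = 3 arrays each). Its log2 change was -0.95 ± 0.12 in the limma fit over 22276 probe sets (adjusted p = 0.0014), in which 18.2% of probe sets were called (8.53% lower and 9.67% higher at day 4), while the brighter probe set changed by -0.28 (adjusted p = 0.0354).

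The probe sets of Sall4 thus gave the same direction and different sizes. The log2 ratio of the brighter to the dimmer probe set within an array was 4.51, 4.17 and 4.29 on the day 4 arrays, against 3.52, 3.57 and 3.89 on the day 3 arrays. The ratio was higher on every day 4 array, by 0.66 ± 0.15 on the log2 scale (exact 2-sided permutation p = 0.1, which is the lowest possible with 3 arrays a day) and by 0.57 without day 4 replicate 1. Which transcripts each probe set reads was not tested. By the mean of both probe sets the Sall4 change was -0.61 ± 0.07 (limma adjusted p = 0.0014). For the brighter probe set alone, 4 of 6 fits with 1 array removed did not make the call. The limma adjusted p was 0.0857 when replicate 2 of day 4 was removed and 0.0775 when replicate 3 of day 4 was, 0.0808 when replicate 1 of day 3 was removed and 0.12 when replicate 3 of day 3 was. Without day 4 replicate 1 the change was -0.33 (limma adjusted p = 0.00391).

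Utf1, which encodes a chromatin-bound protein of undifferentiated cells, was near the filter level on both days. Its brightest probe set, 1416899_at, read 15.3, 8.95 and 10.8 on the day 4 arrays, against 36.9, 10.6 and 14.0 on the day 3 arrays. The days overlap, and only day 3 replicate 1 stands clearly above the filter level of 13.5. The mean log2 signal of this probe set passed the filter only with that array included. The fits with 1 array removed kept the genes chosen with all 6 arrays, so Utf1 stayed in them. The means were 11.7 ± 3.29 at day 4 and 20.5 ± 14.3 at day 3 (SD, n = 3 arrays each), and the change of -0.63 ± 0.52 was not called (limma adjusted p = 0.418). Without day 3 replicate 1 it was -0.10 ± 0.48, and without day 4 replicate 1 it was -0.84 ± 0.58 (limma adjusted p = 0.914 and 0.308). The other probe sets were under the filter level and were not tested. The probe set 1443786_at read between 1.002 and 1.74 over the 6 arrays. The probe set 1458333_x_at read 21.1, 6.74 and 8.999 on the day 4 arrays, against 5.09, 10.4 and 1.22 on the day 3 arrays. These days overlap, and its mean log2 signal was higher at day 4, by 1.43, the opposite direction to the brightest probe set. No change in Utf1 was detected at these signals, which does not show that there was none.

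**Figure D2:**
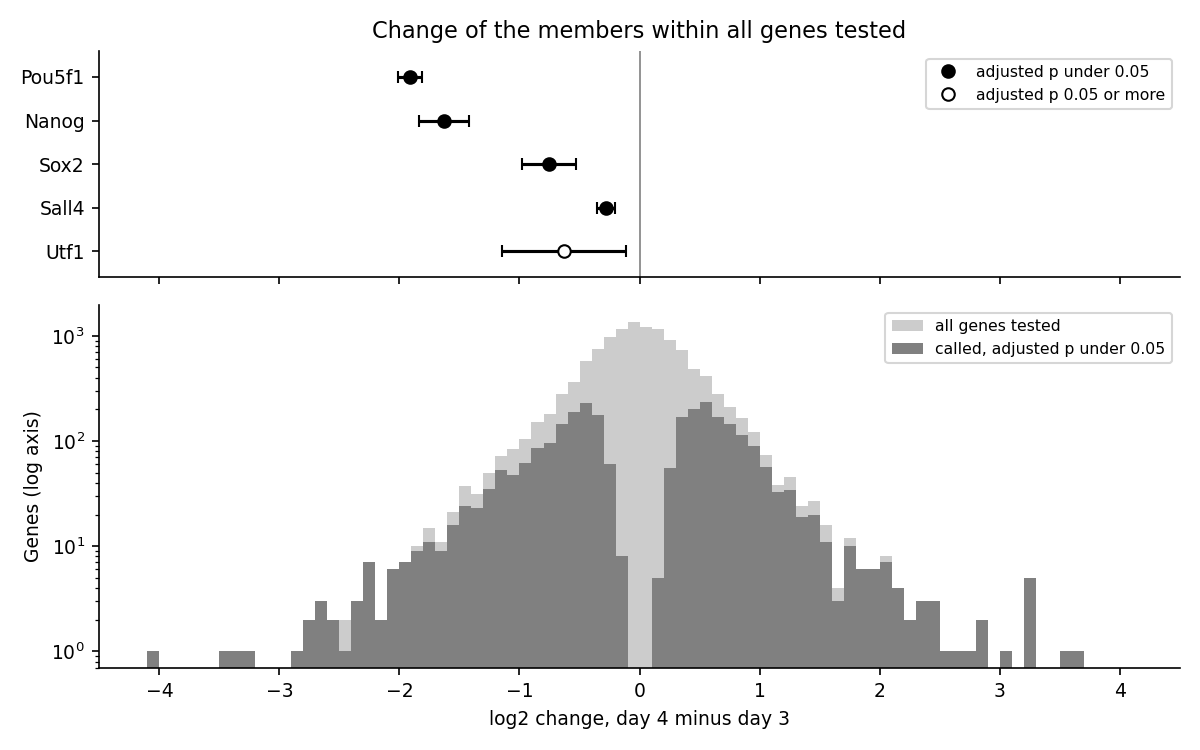
Upper panel: log2 change, day 4 minus day 3, of the 5 genes, with bars for the standard error of the limma fit and filled points for an adjusted p under 0.05. Lower panel: number of genes (log axis) in bins of log2 change for all 12285 genes tested in light grey and for the 2729 called genes in dark grey. Pou5f1 at -1.91 and Nanog at -1.63 lie in the left tail, Sox2 at -0.75 on its shoulder and Sall4 at -0.28 near the centre.

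The changes were also compared between genes as ratios within each array, a comparison in which any effect common to an array cancels. All 10 pairs were compared, and the exact 2-sided permutation test over 6 arrays cannot give less than 0.1. None of the 10 passed 0.05, and the smallest p adjusted over the pairs was 0.25. The change of Pou5f1 minus that of Sall4 was -1.63 ± 0.08 (SE, exact p = 0.1). Their log2 ratio lay between -4.32 and -4.15 on the day 4 arrays, against -2.69 to -2.50 on the day 3 arrays, with no overlap. The difference was -1.16 ± 0.30 for Pou5f1 minus Sox2, -0.88 ± 0.22 for Nanog minus Sox2 and -1.35 ± 0.34 for Nanog minus Sall4, each without overlap of the days (exact p = 0.1 and adjusted p = 0.25 each). Without day 4 replicate 1 the same 4 differences were -1.57, -1.31, -0.82 and -1.08 in the order given. The differences from Sall4 use its brighter probe set. They were smaller with the mean of both Sall4 probe sets, at -1.30 for Pou5f1 and -1.02 for Nanog (exact permutation p = 0.1 each).

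The remaining pairs overlapped between days. Pou5f1 and Nanog differed by -0.28 ± 0.28 (exact p = 0.4), and Sox2 and Sall4 by -0.47 ± 0.37 (exact p = 0.5). Without day 4 replicate 1 these differences were -0.49 and -0.26, and leaving out each array in turn gave -0.49 to -0.04 for Pou5f1 minus Nanog (-0.04 without day 4 replicate 3, -0.17 without day 3 replicate 3) and -0.68 to -0.18 for Sox2 minus Sall4 (-0.18 without day 3 replicate 2). With the mean of both Sall4 probe sets the second of these differences was -0.14. The 4 pairs with Utf1 had standard errors between 0.55 and 0.86, so that Utf1 could not be placed among the others.

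**Figure D3:**
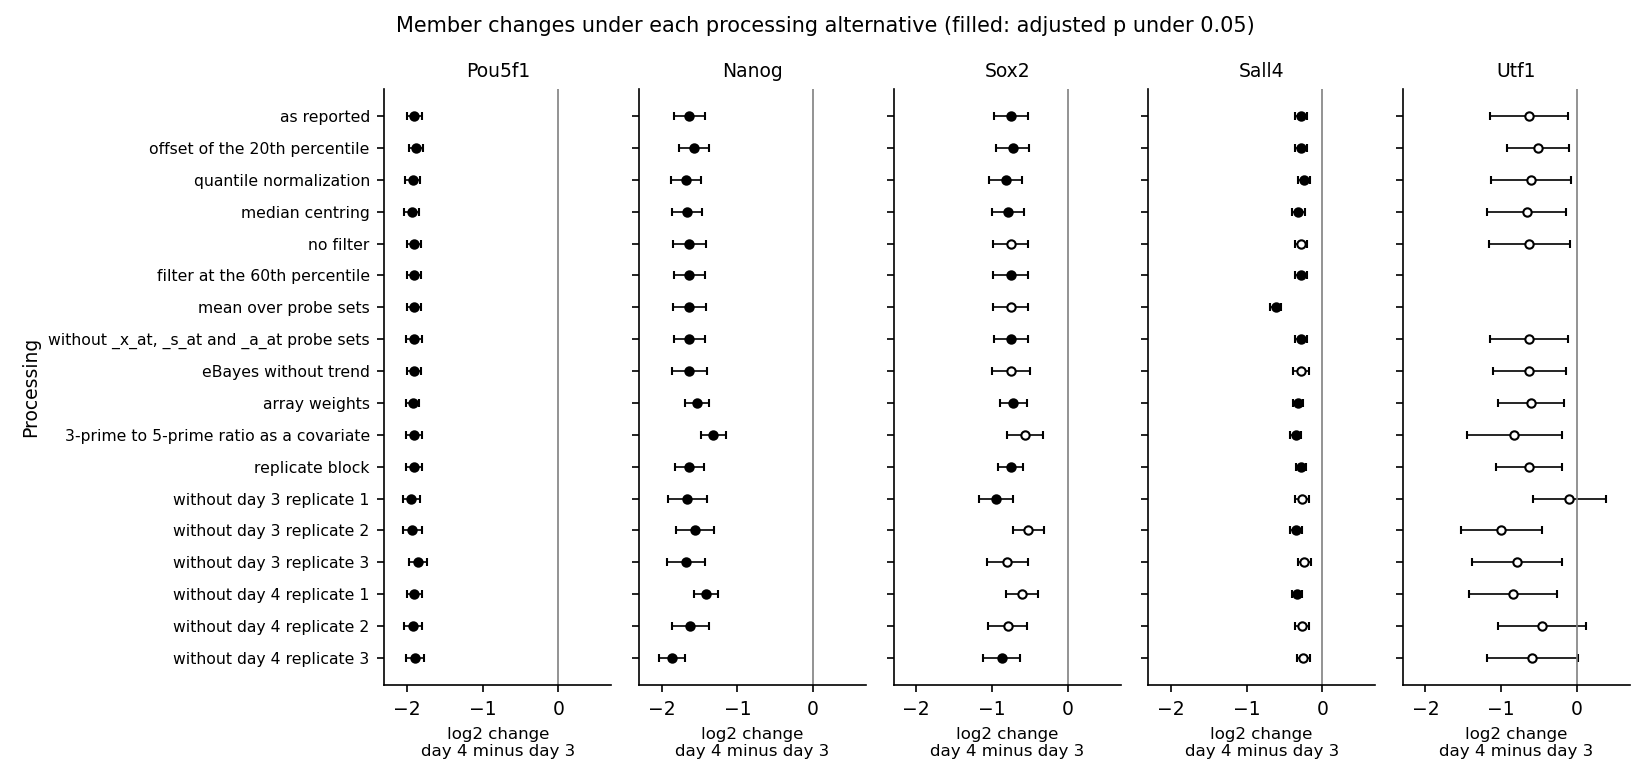
log2 change, day 4 minus day 3, of each gene as reported and under each processing alternative (rows), with bars for the standard error and filled points for a limma adjusted p under 0.05. Pou5f1 and Nanog are filled in every row, Sox2 in 9 and Sall4 in 11 of 17 alternatives, and Utf1 in none of the 15 fits that hold it.

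The genes with the most similar profiles were found by the root mean square difference of mean-centred log2 signal over the 6 arrays. As 3 arrays stand on each side, this distance mainly reflects the size of the change between days. Closest to Pou5f1 were Myl9, a myosin light chain gene, at 0.07, Esrp1, an epithelial splicing regulator, at 0.10 and Lefty2, a Nodal antagonist, at 0.12. Closest to Nanog were Enpp4 at 0.13, Crym at 0.18 and Galnt3 at 0.19. Closest to Sox2 were Zfp979 at 0.08, Prune2 at 0.09 and Rimbp3 at 0.11. The nearest to Sall4, Zbtb45 (0.01), Creb3 (0.02) and Nkain1 (0.03), had changes between -0.28 and -0.25. Closest to Utf1 were Rsad1 at 0.24, Ube2s at 0.30 and Degs2 at 0.31, farther than the nearest of the other genes. None of the 5 pluripotency genes was among the nearest 3 of another.

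Known targets of OCT4, SOX2 and NANOG in ES cells were mostly lower or not called. Of 28 tested genes of this list, 13 were lower, 2 higher and 13 not called, where 10.7% of all genes tested were lower and 11.5% higher. The median change was -0.39 against -0.01 over all genes tested, and the counts were 13 and 2 also without day 4 replicate 1. The 4 called genes with the smallest p were Lefty2, Fgf5, Dppa2, a chromatin factor of pluripotent cells, and Lefty1. Lefty1, a Nodal antagonist, read 224, 171 and 167 at day 4, against 1548, 1057 and 1041 at day 3, a change of -2.69 ± 0.17 (limma adjusted p = 1.88e-05). Fgf5, a ligand of the primed epiblast, changed by -2.20 ± 0.11 (limma adjusted p = 5.64e-06), and Dppa2 by -2.05 ± 0.12 (limma adjusted p = 1.26e-05). Lefty2 read 570, 627 and 614 at day 4, against 2115, 1988 and 2001 at day 3, with the days far apart (change -1.75 ± 0.08, limma adjusted p = 3.84e-06).

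Other targets stayed at bright signals without a call. Lin28a, an RNA-binding protein of stem cells, averaged 1437 ± 178 at day 4 and 1346 ± 267 at day 3 (SD, n = 3 arrays each; limma adjusted p = 0.637). Jarid2, a component of Polycomb complexes, averaged 1939 ± 146 at day 4 and 2100.1 ± 236 at day 3 (SD, n = 3 arrays each; limma adjusted p = 0.432). The 2 targets called higher were Tbx3, a T-box gene, at 301 ± 13.7 at day 4 and 199 ± 11.6 at day 3, and Mycn, at 2207 ± 21.9 at day 4 and 1853 ± 28.6 at day 3.

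Proteins found with OCT4, NANOG, SOX2 or SALL4 in ES cells include many general chromatin factors. Of 32 tested, 3 were higher, 1 lower and 28 not called, where 22.2% of all genes tested were called. The list had 5 higher and 2 lower without day 4 replicate 1, 8 called with the 3′ to 5′ covariate, 8 with the replicate block and 10 with array weights. Over all 12285 genes the same fits called 3530, 3096, 2884 and 4312, against 2729 as reported. The count over all genes thus rose in each of these fits too, but by a smaller proportion than the partner count. With so few partners called, this difference was not tested. The median change was -0.07, and leaving out each array gave -0.12 to -0.0023 (-0.0023 when replicate 1 of day 4 was removed, -0.11 for replicate 2 of day 4, -0.12 for replicate 3 of day 4 and -0.04 for replicate 3 of day 3). Hdac1, a histone deacetylase of the NuRD complex, which SALL4 binds, was at 1474, 1757 and 1595 at day 4, against 2248, 2125 and 2183 at day 3 (change -0.45 ± 0.08, limma adjusted p = 0.004). Ogt, the O-GlcNAc transferase, changed by 0.50 ± 0.09, and Chd1, a chromatin remodeller, by 0.56 ± 0.12 (limma adjusted p = 0.00401 and 0.0109). Sall1, described below among the paralogs and also on the list of repressors, was the third gene called higher. The histone-binding proteins Rbbp7 and Rbbp4, the brightest of the list, were not called (changes of 0.03 ± 0.08 and -0.06 ± 0.09).

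Genes known to repress Pou5f1 or Nanog were called in both directions. Of 14 tested, 3 were higher, 2 lower and 9 not called (3 and 3 without day 4 replicate 1). Over all genes tested, 11.5% were higher and 10.7% lower (14.2% and 14.5% without day 4 replicate 1). The count of called repressors ran from 2 to 8 over the alternatives, with 3 without day 3 replicate 1 and 3 without day 3 replicate 3. The 2 came with the mean over probe sets (1796 of all 11154 genes called) and the 8 with array weights (4312 of 12285). The genes called higher were Dnmt3a, Sall1 and Gata4. Dnmt3a, a de novo DNA methyltransferase, read 1228, 812 and 839.8 at day 4, against 512, 542 and 563 at day 3 (change 0.81 ± 0.15, limma adjusted p = 0.0047). Dnmt3b, the other such enzyme and also on the target list, changed by -0.45 ± 0.08 (limma adjusted p = 0.00473). Gata6, an endoderm factor, was lower (-0.97 ± 0.12, limma adjusted p = 0.000535). Dnmt1, the maintenance methyltransferase, was not called (0.17 ± 0.10, limma adjusted p = 0.248). Tcf7l1, a Wnt pathway repressor of Nanog, was not called (limma adjusted p = 0.104), and its day 4 values of 2015, 975 and 781 against 802, 617 and 700.2 at day 3 overlapped, with the highest on day 4 replicate 1. The nuclear receptor Nr6a1, which silences Pou5f1, was at 509 ± 26.7 at day 4 and 519 ± 33.3 at day 3 (SD, n = 3 arrays each; limma adjusted p = 0.866), and was named after its values were seen.

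Among paralogs of the 5 genes, Sall1 read 914, 871 and 876 at day 4, against 655, 758 and 596 at day 3, a change of 0.41 ± 0.10 (limma adjusted p = 0.0176), and was higher on every day 4 array, while Sall4 was lower on every day 4 array. Sall2 and Sall3 were not called (0.29 ± 0.17 and -0.08 ± 0.11). Pou3f1, a POU factor of the epiblast and of neural cells, read 36.3, 44.0 and 45.4 at day 4, against 72.8, 76.7 and 68.5 at day 3 (-0.80 ± 0.17, limma adjusted p = 0.0091). The other SOXB1 genes gave little: Sox3 was at 27.5 ± 7.93 at day 4 and 27.7 ± 8.35 at day 3 (SD, n = 3 arrays each) and Sox1 was under the filter level. Over the 12 paralogs tested, 1 was higher and 1 lower (2 and 1 without day 4 replicate 1, and 0 of 6 called with the mean over probe sets). The share called over all genes tested was 22.2%, so this count does not set the paralogs apart. Leaving out day 3 replicate 1 or day 3 replicate 3 left 1 called.

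**Figure D4:**
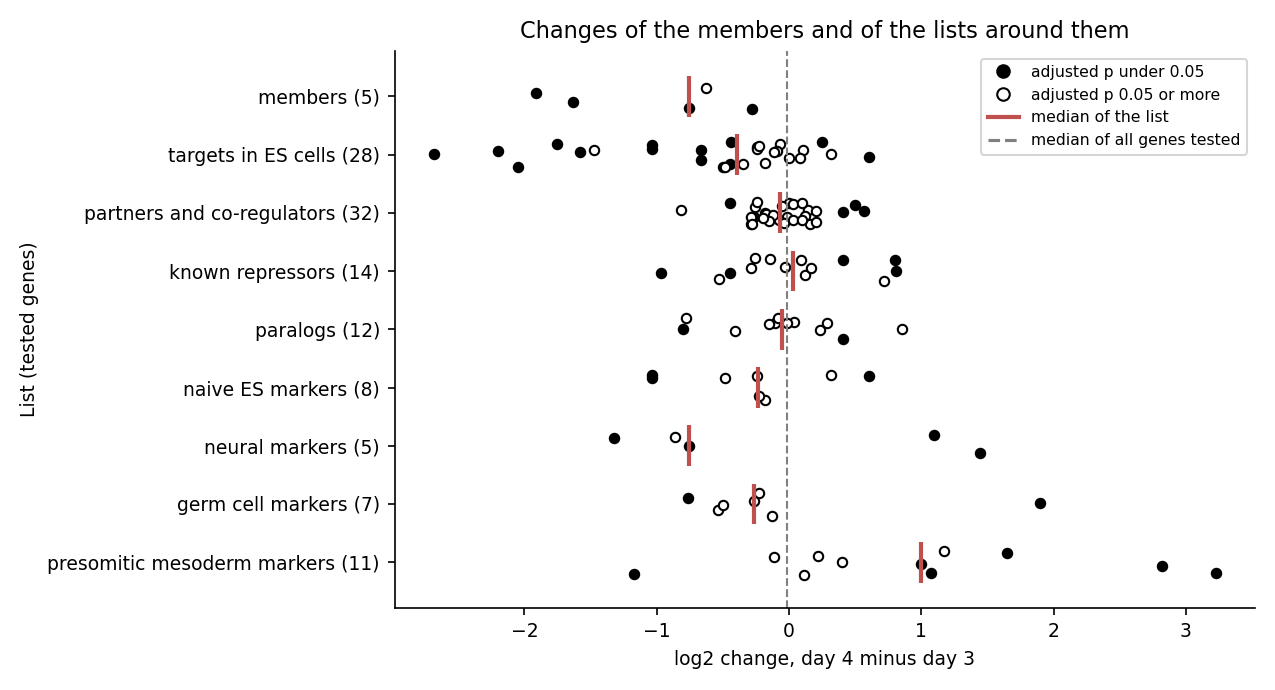
log2 change, day 4 minus day 3, of the tested genes of each list (rows, number tested in brackets), with filled points for a limma adjusted p under 0.05, a red bar at the median of each list and a dashed line at the median of all genes tested (-0.01). The target list lies to the left with a median of -0.39, the partner, repressor and paralog lists centre near 0, and the presomitic list lies to the right with a median of 0.999 (0.35 without day 3 replicate 1).

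Markers of cell types that share these factors were read alongside, since such cells could lie within the sorted population. Of 8 tested markers of naive ES cells, 2 were lower and 1 higher (the same without day 4 replicate 1), where 22.2% of all genes tested were called. All markers of this list are also on the target list above, so these counts repeat genes already counted there. The summed signal of the 10 on the array was 1912 to 2280.4 at day 4, against 3121.5 to 3484 at day 3. Most of that sum was Dppa5a, at 1209 ± 207 at day 4 and 2459.8 ± 206 at day 3 (SD, n = 3 arrays each; change -1.04 ± 0.12, limma adjusted p = 0.000403). Klf2 was also lower (-1.04 ± 0.26, limma adjusted p = 0.0197), Tbx3, given above, was the one higher, Zfp42 and Klf4 were not called, and Tfcp2l1 and Nr0b1 lay under the filter level. The summed signal moved in the same direction as Pou5f1 and Nanog mainly through Dppa5a. The median change of the tested markers was -0.24, against -0.01 over all genes tested. Among the brighter ones, Zfp42 also had a lower mean signal at day 4 (329, against 391 at day 3). Tbx3 (301 and 199) and Klf4 (138 and 112) had higher means at day 4. The part of naive cells in the falls of Pou5f1 and Nanog was not tested.

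For neural progenitors, which use Sox2, 5 of 12 markers on the array could be tested and 7 lay under the filter level, among them Sox1, Hes5, Neurog2 and Olig2. Called genes made up 22.2% of all genes tested. Nes (-0.76 ± 0.20) and Fabp7 (-1.33 ± 0.21) were lower, and Irx3 (1.45 ± 0.20) and Zfp521 (1.10 ± 0.16) were higher (limma adjusted p = 0.0255, 0.00233, 0.00101 and 0.00159), with the same counts without day 4 replicate 1. The summed signal of the 12 markers on the array was 670 to 968 at day 4, against 434 to 524 at day 3. At day 4 most of it was Irx3 and Zfp521. Pax6 was not called (-0.86 ± 0.36, limma adjusted p = 0.112). The part of neural cells in the Sox2 values was not tested.

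For primordial germ cells, which use Pou5f1 and Nanog, 1 of 7 tested markers was higher and 1 lower, also without day 4 replicate 1. With 22.2% of all genes tested called, this count does not set these markers apart. Prdm14, which was under the filter level at day 3, was at least 2.86-fold higher at day 4 (38.6 ± 3.88 at day 4 and 10.3 ± 0.19 at day 3, SD, n = 3 arrays each; limma adjusted p = 0.0016). Ddx4, an RNA helicase of germ cells, was lower (-0.76 ± 0.19, limma adjusted p = 0.0178). Tfap2c (-0.50 ± 0.20) and Dnd1 (-0.13 ± 0.13) were not called. Without day 3 replicate 2, and likewise without day 3 replicate 3, 1 of these markers was called. The summed signal of the 8 markers on the array was 533 to 701 at day 4, against 764 to 938 at day 3, and the part of such cells was not tested.

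The presomitic markers describe the cells of the reporter gate. Of 11 tested, 5 were higher, 1 lower and 5 not called, also without day 4 replicate 1, where 11.5% of all genes were higher and 10.7% lower with all arrays. The summed signal of the 12 on the array was 5671 to 5941 at day 4, against 3366 to 3563 at day 3. The median change of the 11 tested was 0.999, but 0.35 without day 3 replicate 1 and 0.37 with array weights. In both of those fits 5 were higher and 1 lower. The largest rise among the tested was in Aldh1a2, the enzyme that makes retinoic acid, at 174, 206 and 164 at day 4, against 21.5, 13.5 and 24.6 at day 3. Ripply2 lay under the filter level by its mean over all arrays and was not tested. It read 55.7, 40.6 and 39.8 at day 4, against 2.80, 6.54 and 0.43 at day 3. Rspo3 changed by 1.08 ± 0.08, Mesp2 by 1.65 ± 0.12 and Pcdh8 by 0.999 ± 0.14 (limma adjusted p = 5.09e-05, 3.72e-05 and 0.00141). Meox1, also called higher, was at 55.3 ± 16.0 at day 4 and under the filter level, at 8.55 ± 4.90, at day 3 (SD, n = 3 arrays each). The Notch ligands Dll3 and Dll1 were not called (0.22 ± 0.09 and 0.11 ± 0.13). The gene lowered was Msgn1 itself, the reporter's own gene, at 33.2 ± 7.06 at day 4 and 74.6 ± 15.0 at day 3 (SD, n = 3 arrays each; change -1.17 ± 0.24, limma adjusted p = 0.00723). The defining marker Tbx6 was present on both days, at 124 ± 29.5 at day 4 and 132 ± 6.99 at day 3 (SD, n = 3 arrays each), and was not called.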

How the data were processed

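Total RNA of sorted cells was amplified in a double-amplification protocol and hybridised to 1 Affymetrix array per sample, per the labels' protocols. The deposited values are linear signal intensities made with MAS5, per the submitters' processing notes, and each array holds 45101 probe sets. Software version, scaling target and detection calls: not given in the sources used here. Trimmed means ran from 160.4 to 162.1, so no further scaling was applied. MAS5 intensities of dim probe sets scatter widely, and double amplification weights the 3′ ends.

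The platform annotation gave 1 symbol to 34945 non-control probe sets and several to 932, which stayed unnamed. Each of 18193 genes was represented by its probe set of highest mean log2 signal, and 12285 genes above the 40th percentile were tested with limma 3.58.1 in R 4.3.3 (day as the only term, eBayes with trend, 2-sided, Benjamini-Hochberg), after a check on simulated data. Precision is limited by 3 arrays per day. The genes, lists and motif words were chosen with earlier results of these data known. From each list, up to 4 called genes of smallest p and 2 bright genes not called were named. List genes outside this rule were chosen with their values seen (Mycn, Nr6a1, Gata4, Sox3, Sox1, Hes5, Neurog2, Olig2, Tfcp2l1, Nr0b1, Msgn1, Meox1, Tbx6, Ripply2). "At least" folds set the dim day at the filter level. Alternatives covered the offset, normalization, filter, probe set choice, eBayes, array weights, a 3′ to 5′ covariate, a replicate block and leaving out each array.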

Additional observations from a re-analysis of the deposited data

How the results depend on the processing

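Pou5f1 and Nanog kept their direction and their call under all 17 alternatives. Leaving out each array in turn gave log2 changes of -1.95 to -1.85 for Pou5f1, -1.86 to -1.41 for Nanog, -0.94 to -0.52 for Sox2, -0.34 to -0.24 for Sall4 and -0.998 to -0.10 for Utf1. Utf1 was never called and could not be tested with the filter at the 60th percentile or the mean over probe sets. The Sox2 call was lost with no filter (-0.75, adjusted p = 0.0639), the mean over probe sets (-0.75, adjusted p = 0.0581), eBayes without trend (-0.75, adjusted p = 0.0927) and the 3′ to 5′ covariate (-0.56, adjusted p = 0.116), all in limma. The Sall4 call was lost with no filter (-0.28, adjusted p = 0.0529) and eBayes without trend (-0.28, adjusted p = 0.115). The cause was not tested. The count of 2729 called genes was 1796 with the mean over probe sets, where fewer genes were tested (865 higher), and 4312 with array weights (2163 higher, 2149 lower). It was 3096 with the covariate, 2884 with a replicate block and 2059 with eBayes without trend. Leaving out 1 array gave 1582 to 3530 called genes, 866 to 1750 higher and 716 to 1780 lower, with 1582 without day 3 replicate 3 and 1808 without day 3 replicate 2. Called partners, 4 as reported, were 2 with the mean over probe sets, 10 with array weights, 8 with the covariate, 8 with a replicate block and 3 to 7 without 1 array (7 without day 4 replicate 1). Called repressors, 5 as reported, were 2 with the mean over probe sets, 3 with eBayes without trend, 8 with array weights and 3 to 6 without 1 array. Called paralogs, 2 as reported, were 0 with the mean over probe sets and 1 to 3 without 1 array. Called germ cell markers, 2 as reported, were 1 with the filter at the 60th percentile, 1 with eBayes without trend and 1 to 2 without 1 array. Of 86 values of the pair differences under alternatives, 3 turned sign, all with Utf1: Sox2 minus Utf1, -0.12 as reported, was 0.25 when day 4 replicate 1 was left out and 0.48 when day 3 replicate 2 was left out, and Sall4 minus Utf1, 0.35 as reported, was -0.17 without day 3 replicate 1. Leaving out each array gave -0.85 to 0.48 and -0.17 to 0.65 for these. Correlations of deviations from day means were -0.00051 to 0.067 for same-numbered replicates and -0.065 to 0.070 for the other pairs. Day 4 replicate 1 correlated best with its own number, and day 4 replicates 2 and 3 did not. Values this small cannot tell whether same-numbered replicates were paired. With the replicate number as a block, Sox2 was at -0.75 (limma adjusted p = 0.0144) and Sall4 at -0.28 (limma adjusted p = 0.0177), and no call among the 5 genes changed. Signals near the filter level of 13.5, such as those of Utf1, limit what these arrays can show.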
